A study of Mus musculus with 28 samples.

Results

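Trimethylation of lysine 9 on histone H3 (H3K9me3) at gene promoters was compared between the somatic cells and the germ cells of the mouse fetal testis at embryonic stage E13.5. The comparison took 1 library from male soma against 1 from male primordial germ cells (PGCs, the precursors of the gametes). The measure was the RPKM of each promoter (reads per kilobase, scaled to library size by the authors), from 1 kb before to 1 kb after the transcription start. All 22138 promoters of the deposited promoter table were used, so no promoter was selected by its value. The libraries are 3 of the 28 samples of the series, with 2 female germ cell libraries set beside them. Per the labels, SSEA1-positive cells of the gonad were sorted by flow cytometry as PGCs, and the SSEA1-negative remainder was the soma. The soma library came from wildtype C57BL/6 males. The germ cell libraries came from a Setdb1 cross and were Setdb1 flox/- (Het) or Setdb1 delta/- (KO), so that every germ cell library carried at least 1 null allele and the soma library none. Cell type, genotype and strain background therefore cannot be told apart in this comparison. Neither the Cre line that made the delta allele nor any pooling of embryos is named in the labels. The antibody was the same in all 5 H3K9me3 libraries per the labels.

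H3K9me3 is a mark of heterochromatin and of stably silenced genes and transposable elements. Setdb1 is one of the enzymes that write it, and it is often brought to its targets by KRAB zinc finger proteins through the corepressor Trim28, while other methyltransferases maintain it at constitutive heterochromatin. Fetal germ cells pass through a stage of very low DNA methylation, at which H3K9me3 is known to hold part of the genome silent. In the soma, many germline promoters are instead methylated on DNA.

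CpG content differed between the promoters that ranked higher in soma and those that ranked higher in germ cells, and 6 promoters named in the results are shown for it. Kit (the receptor for stem cell factor), Sox2 (a pluripotency factor) and Tdgf1 (a co-receptor of Nodal) ranked higher in soma, and Olfr784 (an odorant receptor), Strc (stereocilin of the inner ear) and Tbx19 (a pituitary T-box factor) ranked higher in germ cells. The sequences are the 250 bases before the RefSeq start in build GRCm38.p6, on the strand of the gene, with each CpG dinucleotide in capitals. Kit, plus strand of chromosome 5, 75574737 to 75574986, the first of 2 starts, holds 17 CpG. Sox2, plus strand of chromosome 3, 34649745 to 34649994, holds 27. Tdgf1, minus strand of chromosome 9, 110946159 to 110946408, holds 7. Olfr784, plus strand of chromosome 10, 129387385 to 129387634, holds 1. Strc, minus strand of chromosome 2, 121380941 to 121381190, holds 4. Tbx19, minus strand of chromosome 1, 165160774 to 165161023, holds 7. The deposited windows are wider and were set on another build.
Kit: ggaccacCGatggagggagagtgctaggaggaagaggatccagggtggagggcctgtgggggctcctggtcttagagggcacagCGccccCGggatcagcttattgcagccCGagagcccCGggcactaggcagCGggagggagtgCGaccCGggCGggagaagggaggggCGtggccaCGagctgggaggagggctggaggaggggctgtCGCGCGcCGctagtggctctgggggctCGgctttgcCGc
Sox2: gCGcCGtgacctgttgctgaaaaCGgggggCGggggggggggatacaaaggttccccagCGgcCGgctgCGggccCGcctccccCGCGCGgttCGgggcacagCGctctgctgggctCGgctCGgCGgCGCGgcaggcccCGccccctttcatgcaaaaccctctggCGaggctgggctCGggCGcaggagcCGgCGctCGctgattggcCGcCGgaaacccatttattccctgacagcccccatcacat
Tdgf1: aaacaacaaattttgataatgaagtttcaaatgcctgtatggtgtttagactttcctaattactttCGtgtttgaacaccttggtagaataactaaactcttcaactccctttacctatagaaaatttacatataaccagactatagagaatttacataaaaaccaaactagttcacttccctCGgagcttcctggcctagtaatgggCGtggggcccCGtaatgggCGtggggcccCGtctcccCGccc
Olfr784: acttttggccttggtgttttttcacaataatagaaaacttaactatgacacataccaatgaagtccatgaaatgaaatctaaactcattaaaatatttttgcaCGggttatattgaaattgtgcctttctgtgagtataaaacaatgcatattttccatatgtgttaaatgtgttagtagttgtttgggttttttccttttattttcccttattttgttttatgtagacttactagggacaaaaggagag
Strc: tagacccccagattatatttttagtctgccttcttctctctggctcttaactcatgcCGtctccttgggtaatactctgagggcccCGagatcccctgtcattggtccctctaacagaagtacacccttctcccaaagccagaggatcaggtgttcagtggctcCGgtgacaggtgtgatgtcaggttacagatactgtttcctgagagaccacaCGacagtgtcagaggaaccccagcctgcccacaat
Tbx19: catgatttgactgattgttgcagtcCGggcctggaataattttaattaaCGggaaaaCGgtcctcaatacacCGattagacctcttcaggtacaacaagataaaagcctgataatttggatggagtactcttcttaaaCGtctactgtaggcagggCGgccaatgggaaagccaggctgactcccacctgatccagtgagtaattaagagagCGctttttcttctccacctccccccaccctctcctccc

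The soma library stood apart from the 4 germ cell libraries in the spread of its values, and this bears on every result that follows. Its median promoter had 0.721 RPKM, with quartiles at 0.498 and 0.927, while the medians of the germ cell libraries lay between 0.127 and 0.179 RPKM. Only 31 promoters (0.140%) reached 3 times the library median in soma, against 3196 (14.4%) in male PGC Het and 1790 to 3471 in the other 3 germ cell libraries. At the top the scales met, with highest values of 24.9 RPKM in soma and 25.4 in male PGC Het. A value of 1 RPKM was 1.39 times the library median in soma and 7.87 times that in male PGC Het. Input or total H3 of soma was not analysed here, and whether the narrow spread belongs to the cells or to the library was not tested. Promoters were therefore compared by percent rank within each library (0 lowest, 100 highest). In the RNA libraries of C57BL/6 male soma and PGC, all 10 germ cell markers were higher in PGC, with summed RPKM of 1747 against 17.9 and 1 marker (Tex101) at 0 in soma. The 7 Sertoli, 5 Leydig and 6 stromal markers were all higher in soma, and erythroid markers summed to 1588 RPKM there, so the SSEA1-negative fraction held several cell types. The 4 macrophage markers were higher in soma too, with sums of 19.6 against 4.59 in PGC. Of 4 endothelial markers 3 were higher in soma and 1 (Pecam1) in PGC, with sums of 34.4 in soma and 47.3 in PGC.

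**Figure D1:**
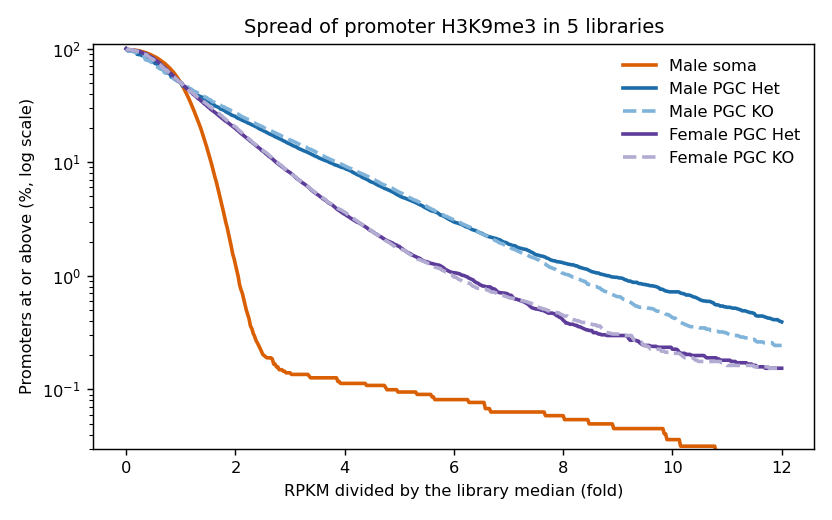
Share of the 22138 promoters (vertical axis, percent, log scale) whose H3K9me3 reached a given multiple of the library median (horizontal axis, fold), 1 line a library. The soma line falls to 0.140% at 3 times the median, where male PGC Het stands at 14.4% and every germ cell line is at 8.09% or more.

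Promoters were ordered differently by H3K9me3 in soma and in germ cells. Across the 22138 promoters, which are not independent replicates, the rank correlation of soma was 0.26 with male PGC Het, 0.25 with male PGC KO, 0.20 with female PGC Het and 0.07 with female PGC KO. Among the germ cell libraries the lowest such correlation was 0.66 and the highest 0.77. A promoter's rank differed between soma and male PGC Het by a median of 23.5 points, against 11.1 points between male KO and male Het and 11.9 points between female Het and male Het. Of the 1107 promoters that make up the highest 5% of each library, soma shared 252 (22.8%) with male PGC Het and male PGC Het shared 688 (62.1%) with female PGC Het. Soma shared 312 with male PGC KO, a larger number than with male Het. Promoter H3K27me3 of male PGC Het, the Polycomb mark, was closer to soma H3K9me3 (rank correlation 0.41, 363 of the highest 1107 shared) than germ cell H3K9me3 was.

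**Figure D2:**
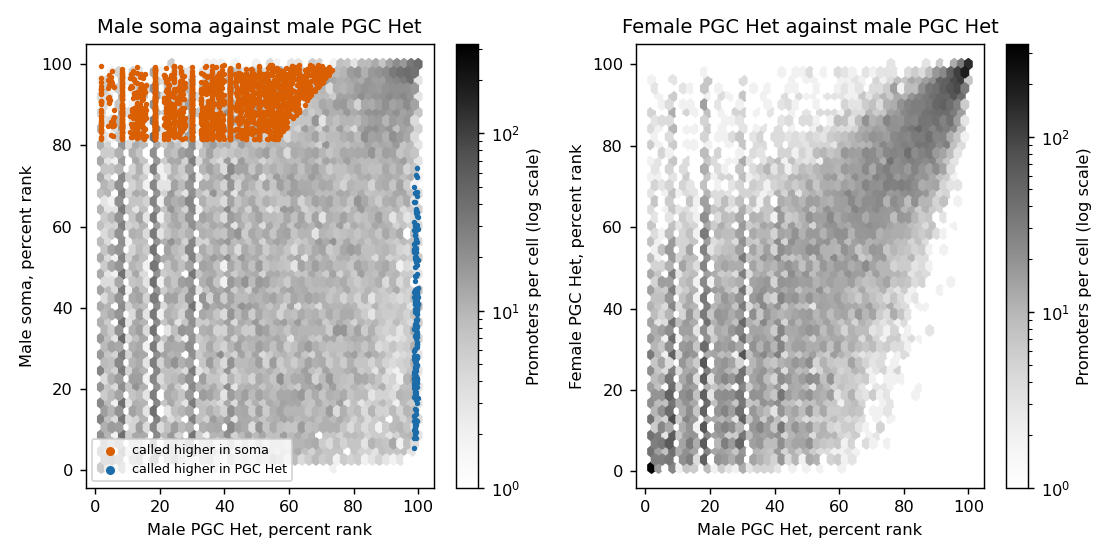
Percent rank of each promoter in male PGC Het (horizontal axes) against its percent rank in male soma (left) and in female PGC Het (right), with shading for the number of promoters per cell on a log scale. Orange and blue points are the 1919 promoters called higher in soma and the 175 called higher in PGC Het. The right panel lies along the diagonal and the left panel does not.

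Some of the very highest promoters were shared, although soma and male Het had only 41 of their highest 221 (18.6%) in common. Sfi1, a centrin-binding protein of the spindle pole, was first among named genes in both, at 18.9 RPKM in soma, 19.6 in male PGC Het and 18.6 in male PGC KO. Sp140 and Sp110, nuclear body proteins, had 4.79 and 3.82 RPKM in soma and 5.01 and 4.70 in Het. Dux, a transcription factor of the cleavage-stage embryo, had 4.07 and 2.91, and Ugt1a1, the bilirubin glucuronosyltransferase, 3.16 and 6.32. These are names with many copies or near-identical neighbours, and how reads with several matches were placed is not stated in the labels. Of the 10 named promoters highest in each library, 6 were the same. Hjurp, the chaperone of the centromeric histone, was the clearest of the others in RPKM, with 4.74 in soma, 1.17 in male Het, 0.692 in male KO, 1.36 in female Het and 0.904 in female KO. Its rank barely differed, at 99.9 in soma and 99.1 in male Het. Relative to the library medians it stood lower in soma, at 6.57 times against 9.20 in male Het. Trpm8, the cold receptor, gave nearly the same 5 values as Hjurp (4.72 RPKM in soma and 1.16 in male Het). Smok2a and Smok2b, sperm motility kinases, went the other way in RPKM, at 1.60 and 1.799 in soma against 5.51 and 5.24 in male Het.

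A promoter was called when its percent ranks differed by at least 25 points and its RPKM was at least 1 in the library where it ranked higher. There is 1 library a side, so these are calls by size, without replicate error and without a p-value. By this rule 1919 promoters (8.67%) were higher in soma and 175 (0.79%) were higher in male PGC Het. The same rule between germ cell libraries called 5 (0.0226%) and 2 (0.00903%) promoters for female against male Het, and 1 (0.00452%) and 3 (0.0136%) for male KO against male Het. The soma count cannot be set against the Het count, or against the counts between germ cell libraries. A level of 1 RPKM was reached by 4113 promoters in soma, 298 in male Het, 284 in female Het and 336 in male KO, which caps the calls. Between soma and male Het, 46.7% of those at that level in soma and 58.7% of those in Het were called. Without the RPKM condition 5294 promoters were higher in soma and 5250 in Het, and with a condition of 2 times the library median in its place the counts were 62 and 2629. A ratio of 2 after division by the library median gave 955 and 296. Against female PGC Het, 1640 of the 1919 and 174 of the 175 also differed by 25 points, with no RPKM condition on the female library. By the full rule with female Het in place of male Het, 2046 and 187 were called, and these hold 1640 of the 1919 and 113 of the 175.

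CpG content, which the rule did not use, ran in opposite directions in the 2 sets. For 14814 promoters with a RefSeq sequence of 300 bases around the start, the median was 14 CpG and 57.0% G and C. The promoters higher in soma had a median of 19 CpG and 60.3% G and C (1353 with sequence), and those higher in Het had 2 CpG and 44.7% (97 with sequence). At most 3 CpG were found in 69.1% of the Het-high promoters and 6.21% of the soma-high promoters, against 22.4% of all. Among all promoters at 1 RPKM or more, called or not, the share was 50% in male Het and 7.61% in soma. In soma, median H3K9me3 rose from 0.54 times the library median at 0 to 1 CpG to 1.14 times at 10 to 15. In male PGC Het it was 1.19 times the library median at 0 to 1 CpG, 1.43 times at 3 to 6 and 0.70 times above 20, and the other 3 germ cell libraries also fell. The rank correlation with CpG number was 0.29 in soma and -0.23, -0.28, -0.25 and -0.38 in male Het, male KO, female Het and female KO. Within single CpG classes soma and male Het still correlated by only 0.28 to 0.41, against 0.55 to 0.75 for male and female Het. Fragment GC content and library preparation also move with CpG number, and their part was not tested.

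**Figure D3:**
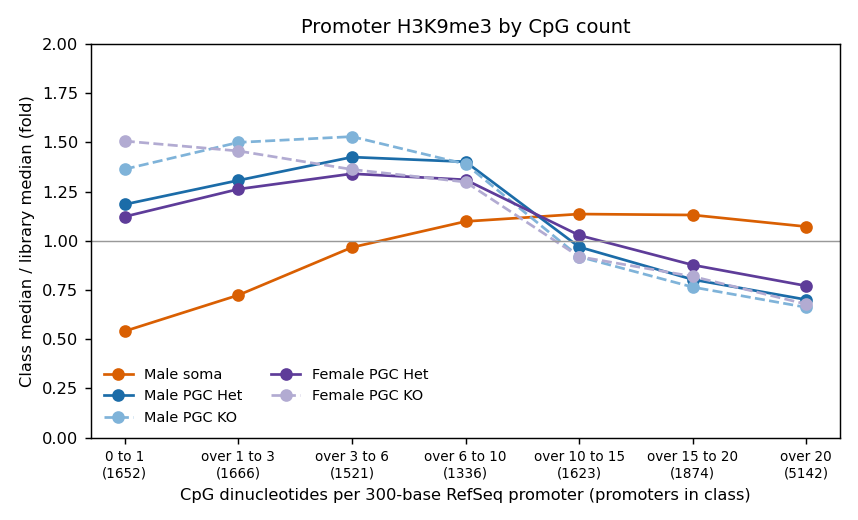
Median promoter H3K9me3 of each CpG class divided by the library median (vertical axis, fold) by the number of CpG in the 300-base RefSeq promoter (horizontal axis, with the number of promoters), 1 line a library. Soma climbs from 0.54 to 1.14, while male PGC Het falls from a peak of 1.43 to 0.70.

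The soma-high promoters were mostly those of expressed genes. Their median RNA was 7.96 RPKM in soma and 7.11 in PGC, against 2.61 and 1.11 over all genes, and 83.1% were expressed at RPKM 1 or more in either cell type, against 60.8% of all. Of all 4113 promoters at 1 RPKM or more of H3K9me3 in soma, called or not, 64.4% were expressed, with median RNA of 2.03 and 0.97. Of the 2194 not called, 48.1% were expressed. Expression thus went with the call, which asks for a lower rank in Het, and not with that level in soma. Among the 1594 expressed soma-high promoters, 381 (23.9%) had RNA at least 2-fold higher in soma and 388 (24.3%) in PGC, beside a background of 32.6% and 20.1% of the 13457 genes expressed. Another RefSeq start lay within 2 kb in 31.7% of the soma-high promoters with sequence. The share was 19.5% of all promoters with sequence and 24.4% of those at 1 RPKM or more in soma. The soma-high promoters stood at a median of 1.12 RPKM in soma, 0.094 in male Het, 0.099 in male KO and 0.15 in female Het. In rank this was 89.97 in soma and 38.2, 39.2 and 40.8 in the 3 germ cell libraries.

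The 15 named soma-high promoters with the widest gaps carried 1.18 to 1.57 RPKM in soma and at most 0.014 in male Het. C8g, a subunit of complement component 8, had 1.57 RPKM in soma, was listed at 0 in male Het and had 0.071, 0.069 and 0.135 in male KO, female Het and female KO. Gpbar1, the membrane bile acid receptor, had 1.29 in soma and was also listed at 0 in male Het. Ddx42, an RNA helicase with 48.5 RPKM of RNA in soma and 65.7 in PGC, had 1.21 in soma, was listed at 0 in male Het and had 0.150 in female Het. Ctsb, the lysosomal protease cathepsin B, had 1.18 in soma and was listed at 0 in male Het, but had 0.209 RPKM (rank 58.0) in female Het. The others were Zbtb48, Eml3, Sharpin, Ppcs, Mblac2, Trpt1, Nudt22, Zmynd12, Slc36a1, Mcee and Mphosph10. Mcee and Mphosph10 had the same 1.26 and 0.013 RPKM. Female Het was above male Het in all 15, which the rule chose for low male Het values.

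Core pluripotency and germ cell genes held the largest share of soma-high promoters of the 27 lists with members in the table. Of 25 promoters, 8 (32.0%) were called higher in soma and 0 higher in Het, beside 8.67% and 0.79% of all promoters. The median rank was 82.1 in soma, 67.3 in male Het, 84.5 in male KO and 76.5 in female Het. RNA of 21 of the 22 expressed members was at least 2-fold higher in PGC and of 0 in soma, and all 8 called members were among the 21. The 8 did not hold equally in the other germ cell libraries. Dnd1, Kit, Nanos3 and Sox2 also stood 25 points above female Het, and Dnd1, Kit, Nanos3 and Pou5f1 above male KO.

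Kit, the receptor tyrosine kinase that germ cells need to survive, had 1.11 RPKM in soma, 0.115 in male Het, 0.113 in male KO, 0.143 in female Het and 0.112 in female KO. Nanos3, an RNA-binding protein of early germ cells, had 1.04 in soma, 0.043 in male Het, 0.141 in male KO, 0.173 in female Het and 0.155 in female KO. Dnd1, which protects germ cell mRNAs, had 1.28 in soma and 0.102, 0.120, 0.231 and 0.105 in the same germ cell libraries. These 3 were chosen by the rule for high soma and low male Het values, and the soma median is itself above the germ cell medians in RPKM. Relative to the library medians, soma stood at 1.77 for Dnd1, 1.55 for Kit and 1.45 for Nanos3, and male Het at 0.80, 0.91 and 0.34. RNA was 94.8 RPKM in PGC and 6.99 in soma for Kit, 9.65 and 0.72 for Nanos3, and 70.7 and 1.85 for Dnd1.

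Tdgf1 had the highest soma value of the list, 1.98 RPKM (2.74 times the library median), with 0.195 in male Het, 0.553 in male KO, 0.354 in female Het and 0.635 in female KO. Tcl1, a coactivator of the kinase Akt, had 1.76 in soma and 0.209, 0.633, 0.427 and 0.421 in the germ cell libraries. Pou5f1, the pluripotency factor Oct4, had 1.63 in soma and 0.217, 0.286, 0.349 and 0.261. In rank these 3 stood at 99.6 to 99.8 in soma and at 66.6 to 70.1 in male Het. Utf1, a chromatin protein of undifferentiated cells, had 1.16 in soma, 0.089 in male Het, 0.681 in male KO, 0.389 in female Het and 0.329 in female KO, so its rank moved from 36.2 in male Het to 94.6 in male KO. Sox2 had 1.19 in soma and 0.168, 0.325, 0.156 and 0.134. Male KO was above male Het in 22 of the 25 promoters, beside 53.7% of all promoters, and female KO was above female Het in 12 of 25, beside 34.8% of all. The low ranks in male Het that the calls rest on were thus not shared by every germ cell library.

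Of the 17 members not called, 7 ranked higher in soma and 10 in male Het. Klf2, a zinc finger factor, ranked 37.7 in soma and 13.02 in male Het, and Lin28a, an RNA-binding protein, 56.9 and 34.1. Prdm14, needed for germ cell specification, had 1.24 RPKM in soma (rank 95.1) and ranked 73.9 in male Het. These 3 were the closest to the gap of 25 points. Nanog, the homeodomain pluripotency factor, had 0.517 RPKM in soma (rank 26.7) and 0.075 in male Het (rank 27.7), but stood at rank 88.6 in male KO and 88.1 in female Het. Dppa3, the maternal factor Stella, ranked 35.2 in soma and 78.7 in male Het, although its RNA was 409 RPKM in PGC and 1.50 in soma. Dppa2 ranked 34.2 in soma and 69.5 in male Het. Fgf4 ranked 89.7 and 98.0, and Nanos2, the male germ cell fate factor, 83.3 and 93.0.

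Germline genes that the soma silences by DNA methylation carried H3K9me3 ranks high on both sides. Of 35 promoters 3 (8.57%) were called higher in soma, beside 8.67% of all promoters, and 0 higher in Het. The median rank was 83.3 in soma, 92.3 in male Het, 92.1 in male KO and 92.1 in female Het, although 30 of 31 expressed members had RNA at least 2-fold higher in PGC. Rank 90 was reached by 20 of the 35 in male Het and by 12 in soma, and by 6 in both. Brdt, a bromodomain protein of spermatogenesis, ranked 99.04 in soma and 98.7 in male Het, with 1.48 and 1.01 RPKM. Mei1, a meiotic recombination protein, had 1.35 and 1.03 RPKM, and Dpep3 1.44 and 1.62. Dazl, an RNA-binding protein of germ cells, had 1.35 RPKM in soma (rank 97.7) and 0.341 in male Het (rank 82.8), with 607 RPKM of RNA in PGC and 1.89 in soma. Ddx4, the germ cell helicase Vasa, went the other way, with 0.779 in soma (rank 57.7) and 0.627 in Het (rank 94.7).

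The 3 called members were Smc1b and Stag3, subunits of the meiotic cohesin, and Ggnbp1. Smc1b had 1.27 RPKM in soma and 0.215, 0.309, 0.175 and 0.190 in male Het, male KO, female Het and female KO. Stag3 had 1.21 in soma and 0.153, 0.353, 0.467 and 0.132, so that female Het ranked it at 88.7. Among 16 genes of meiotic entry and recombination, 1 (6.25%, beside 8.67% of all promoters) was called higher in soma. It was Prdm9, the methyltransferase that places recombination, with 1.27 RPKM in soma and 0.185 in male Het. The median rank of that list was 75.7 in soma, 48.9 in male Het and 60.4 in female Het. The median difference over its members was 14.0 points against male Het and reversed to -2.06 against female Het, where 7 of 16 ranked higher in soma.

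Of 21 imprinted genes at or beside a germline differentially methylated region, 0 were called in either direction. Without the RPKM condition 7 ranked at least 25 points higher in male Het and 0 in soma, beside 23.7% and 23.9% of all promoters. The median rank was 78.2 in soma, 83.3 in male Het and 90.7 in male KO, so many had no room for a gap of 25 points towards soma. Peg3, a zinc finger gene, had 1.68 RPKM in soma (rank 99.7) against 0.276 in male Het (rank 77.1). Grb10, an adaptor of insulin signalling, had 0.563 in soma (rank 31.4) against 0.792 in Het (rank 97.3), with RNA of 204 RPKM in soma and 6.06 in PGC. Peg10 and Rasgrf1 ranked high on both sides, at 95.6 and 98.0 in soma and 98.8 and 98.7 in Het. Of 27 other imprinted genes 3 (11.1%) were called higher in soma, near the 8.67% of all promoters. Tssc4 had 1.29 RPKM in soma and 0.026 in male Het, Tspan32 had 1.28 and 0.220, and Ube3a, the ubiquitin ligase of Angelman syndrome, had 1.06 and 0.089.

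Genes of the somatic cells themselves were called higher in soma at the rate of all promoters, 4 of 47 (8.51%) beside 8.67%. The median rank was 35.2 in soma and 76.1 in male Het for 17 stromal and endothelial genes, 43.8 and 64.4 for 10 Leydig genes and 79.01 and 77.02 for 20 Sertoli genes. Taken promoter by promoter, the gaps were smaller, with a median soma minus Het difference of -8.90, 0.81 and -2.15 points in the same order. Of these lists, 5 of 17, 5 of 10 and 7 of 20 promoters ranked higher in soma. Without the RPKM condition 1 stromal or endothelial promoter ranked at least 25 points higher in soma and 6 in Het. Amh, the anti-Mullerian hormone of Sertoli cells, had 1.21 RPKM in soma (rank 94.2), 0.025 in male Het, 0.047 in male KO and 0.069 in female Het, while its RNA was 263 RPKM in soma and 7.94 in PGC. Scarb1, the lipoprotein receptor of steroid-producing cells, had 1.26 and 0.191 RPKM of the mark, with RNA of 38.0 and 15.8. Mfap4, a microfibril protein of stroma, had 1.11 and 0.148, with RNA of 128 and 8.39. Trim47 was the other called Sertoli gene, at 1.03 and 0.149 RPKM. The soma library mixes cells that express such a gene with cells that do not.

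Predicted genes and members of the listed families made up more of the promoters that ranked higher in germ cells than of all promoters. Of the 175, 71 (40.6%) carry predicted or clone names, against 17.0% of all promoters, and 59 (33.7%) fell in 1 of the lists, against 12.96% of all. Predicted names were as common (42.3%) among all 298 promoters at 1 RPKM or more in male Het, so they go with that level and not with the call. The share of the lists among the 298 was not taken, so level and call were not told apart for them. At that level stood 15 odorant receptors, 13 vomeronasal receptors, 12 cytochrome P450 genes, 10 developmental transcription factors and 4 Hox genes. Of these, 15, 12, 9, 2 and 1 were called higher in Het. Median RNA of the 175 was 0 RPKM in both cell types, and 21 (12%) were expressed, against 60.8% of all and 18.8% of the 298. They stood at a median of 0.601 RPKM in soma, 1.30 in male Het, 1.03 in male KO, 1.14 in female Het and 0.865 in female KO. In the female library, which the rule did not use, 168 of the 175 were in the highest 5%, as were 285 of all 298 at 1 RPKM or more in male Het. In soma, 128 of the 175 lay below the library median, but the rule itself asked for a lower rank in soma.

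Odorant and pheromone receptors gave the largest numbers of promoters called higher in Het among the lists, from large families. Of 1111 odorant receptor promoters 15 (1.35%) were called higher in Het and 3 (0.27%) in soma, beside 0.79% and 8.67% of all promoters, with a median rank of 14.1 in soma and 59.3 in male Het. Of 328 vomeronasal receptor promoters 12 (3.66%) were called higher in Het and 0 in soma, with median ranks of 8.75 and 53.8. All 12 were among the 200 promoters of the V1R family. As families they lay near the middle in Het and near the bottom in soma, and the called members were a small high end. Olfr784 had the widest gap, with 0.259 RPKM in soma (rank 7.90), 1.23 in male Het (rank 99.2), 0.932 in male KO, 1.27 in female Het and 0.916 in female KO. Olfr401 had 0.663 in soma and 2.06, 2.12, 1.804 and 1.23 in the same germ cell libraries. Vmn1r167 had 0.296 in soma and 1.05, 0.912, 0.923 and 0.758.

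Other gene clusters had called members in larger shares. Of 97 cytochrome P450 promoters 9 (9.28%) were called higher in Het, and 5 of them were among the 10 of the Cyp3 family, which metabolises drugs and steroids in liver. The Cyp3 median rank was 26.8 in soma and 98.6, 98.4, 98.1 and 98.1 in male Het, male KO, female Het and female KO. Cyp3a11 had 0.615 RPKM in soma and 1.98, 1.81, 1.64 and 2.01 in these libraries, and Cyp3a16 had 0.734 and 1.99, 1.61, 1.42 and 1.39. The Cyp4 family showed no such gap, with median ranks of 63.7 in soma and 65.2 in male Het. Serpina1a, Serpina1c and Serpina1d, the alpha-1-antitrypsin genes, had 0.826, 0.793 and 0.676 RPKM in soma and 1.65, 2.34 and 1.19 in male Het. Among C-type lectin and natural killer receptor genes 4 of 60 (6.67%) were called, all of the Klra (Ly49) family, with Klra17 at 0.275 in soma and 1.16, 1.11, 1.02 and 0.917 in the germ cell libraries. These families consist of close copies, between which reads could be split.

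Ceacam5, an adhesion molecule, had 0.333 RPKM in soma and 1.46, 1.36, 1.41 and 1.02 in male Het, male KO, female Het and female KO. Mrgprb8 and Mrgprx2, Mas-related receptors, had 0.416 and 0.401 in soma and 2.09 and 1.46 in male Het. For both, every germ cell library was above 1 RPKM.

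Of 30 two-cell stage genes and their relatives, 2 (6.67%) were called higher in Het, Pramef17 with 0.527 RPKM in soma and 1.91 in male Het and Pramef6 with 0.597 and 1.24. The median rank of the list was 21.1 in soma and 70.0 in male Het. X-linked multicopy testis genes had 0 calls in 78 promoters, with median ranks of 7.68 in soma, 41.6 in male Het and 42.7 in male KO against 89.5 in female Het and 89.0 in female KO. Zinc finger genes by name, 402 promoters, had 33 (8.21%) called higher in soma and 3 (0.75%) higher in Het, close to all promoters, with median ranks of 50.9 and 43.7.

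Clustered developmental genes ranked high in germ cells and nearer the middle in soma. The 40 Hox promoters had a median rank of 66.3 in soma, 96.5 in male Het, 95.2 in male KO and 92.1 in female Het, with 1 (2.50%) called, Hoxd11, at 0.782 RPKM in soma and 1.11 in male Het. All 4 clusters showed the gap, from 45.4 against 95.8 in Hoxb to 80.9 against 97.1 in Hoxc. RNA of 27 of the 29 expressed Hox genes was at least 2-fold higher in soma. The clustered protocadherins, adhesion molecules of neurons, had a median rank of 50.1 in soma, 92.3 in male Het and 97.5 in male KO over 24 promoters, with 1 (4.17%) called, Pcdhb8. Over 145 developmental transcription factors outside these clusters the gap was smaller, 81.1 in soma against 91.3 in male Het, with 5 (3.45%) called higher in soma and 2 (1.38%), Gsx2 and Tbx19, higher in Het. Beside the 8.67% and 0.79% of all promoters, soma calls were fewer in these 3 lists, and the Het calls of 1, 1 and 2 promoters are too few to compare. The rule itself limited the soma calls, since high ranks in male Het left many members no room for the required gap towards soma. The lower soma counts therefore cannot show that the mark was low in soma at these promoters. The same promoters ranked high for H3K27me3 in male PGC Het, at medians of 98.5 for Hox genes, 95.7 for the transcription factors and 81.9 for the protocadherins.

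**Figure D4:**
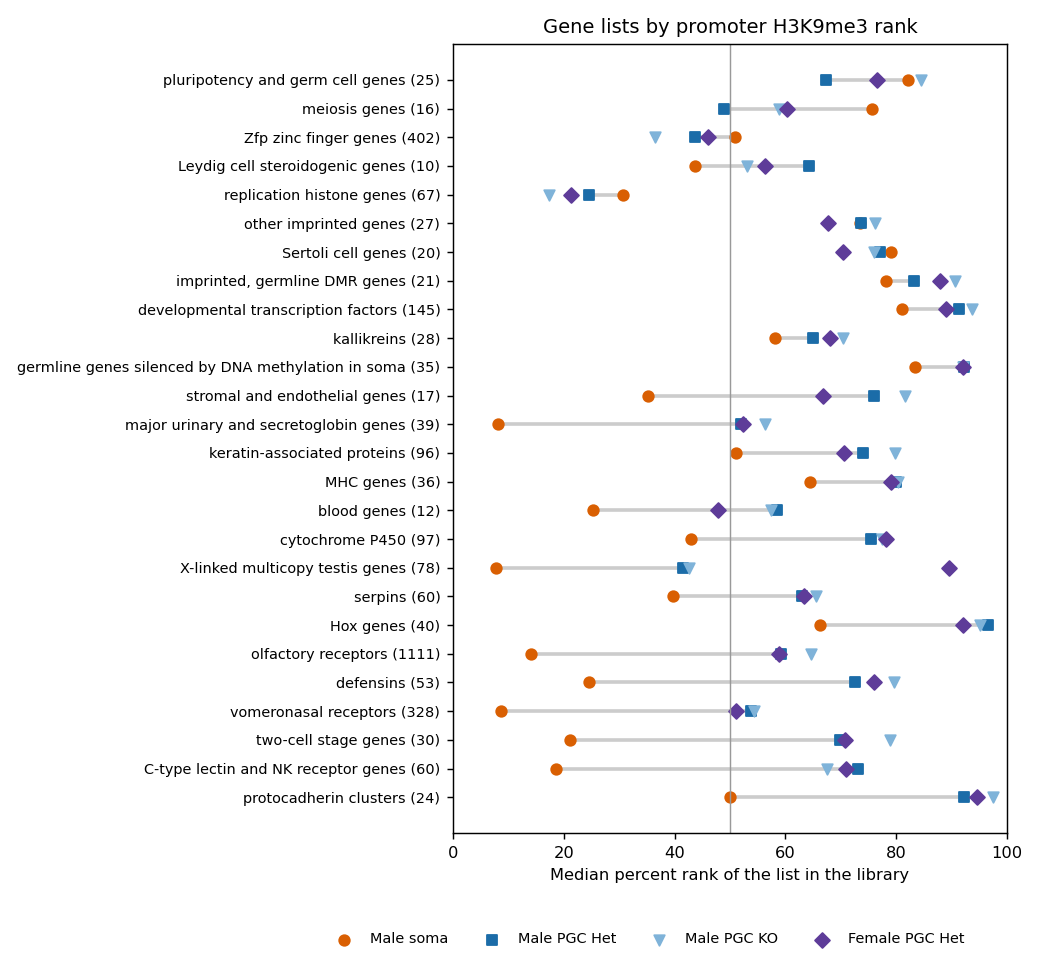
Median percent rank (horizontal axis) of promoter H3K9me3 for each gene list with at least 10 promoters (number in brackets), in male soma, male PGC Het, male PGC KO and female PGC Het, with lists ordered by the median soma minus Het difference. Pluripotency genes are at the top with 82.1 in soma and 67.3 in Het, and the receptor and protocadherin families are at the bottom. X-linked multicopy genes stand at 89.5 in female Het alone of the libraries drawn.

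H3K27me3 in male PGC Het differed between the called promoters and those that were high on both sides. The 123 promoters at 1 RPKM or more of H3K9me3 in male Het that were not called had a median rank of 98.1 for H3K27me3 and 96.9 for H3K9me3 in soma, and a median of 13 CpG. The 175 called promoters had a median H3K27me3 rank of 78.6, and the 1919 soma-high promoters one of 45.4. The 2194 promoters at 1 RPKM or more in soma that were not called stood at a median rank of 91.4 for germ cell H3K27me3. Over all promoters the rank correlation of H3K27me3 with H3K9me3 within male PGC Het was 0.72, and with H3K9me3 in soma 0.41. The sets were formed by these H3K9me3 ranks, so their differences in H3K27me3 can follow from the rule. The high soma rank of the 123 also follows from it. Whether the 2 antibodies drew on a common background was not tested.

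Some Het-high promoters lost H3K9me3 in the KO. By a rule chosen after the values were seen, KO under 50% of Het in both sexes, 22 of the 175 (12.6%) qualified, and 18 of them have gene names. The same rule took 31 of all 298 promoters at 1 RPKM or more in male Het (10.4%), so the share among the Het-high promoters was near that background. Among all 284 promoters at 1 RPKM or more in female Het, 60 (21.1%) were under 50% in female KO, and among the 113 Het-high promoters at that level 24 were, again near the background. The 22 had median RPKM of 1.43 in male Het, 0.491 in male KO, 1.24 in female Het, 0.435 in female KO and 0.638 in soma. Their ranks in soma ran from 17.9 to 64.3, and 17 of the 22 lay below the soma median. Even in male KO their median rank was 88.6.

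Strc had 2.14 RPKM in male Het, 0.839 in male KO, 1.81 in female Het, 0.781 in female KO and 0.648 in soma. Tbx19 had 1.79, 0.571, 1.45, 0.685 and 0.634 in the same order. H2-T24, a nonclassical histocompatibility gene, had 2.15, 0.784, 1.79, 0.675 and 0.681. In all 3 the KO values and the soma value came near each other in RPKM, but in rank soma was at 40.9, 39.2 and 44.9 and male KO at 97.2, 91.6 and 96.5. Cml2, an acetyltransferase-like gene, fell furthest, with 1.22 in male Het, 0.170 in male KO, 0.776 in female Het, 0.151 in female KO and 0.460 in soma. Its rank was 99.2 in male Het, 58.0 in male KO and 21.7 in soma. Catsper3, a subunit of the sperm calcium channel, had 1.64, 0.710, 1.67, 0.792 and 0.708. By contrast Olfr401, Cyp3a11 and Serpina1a kept 1.72 RPKM or more in male KO.

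**Figure D5:**
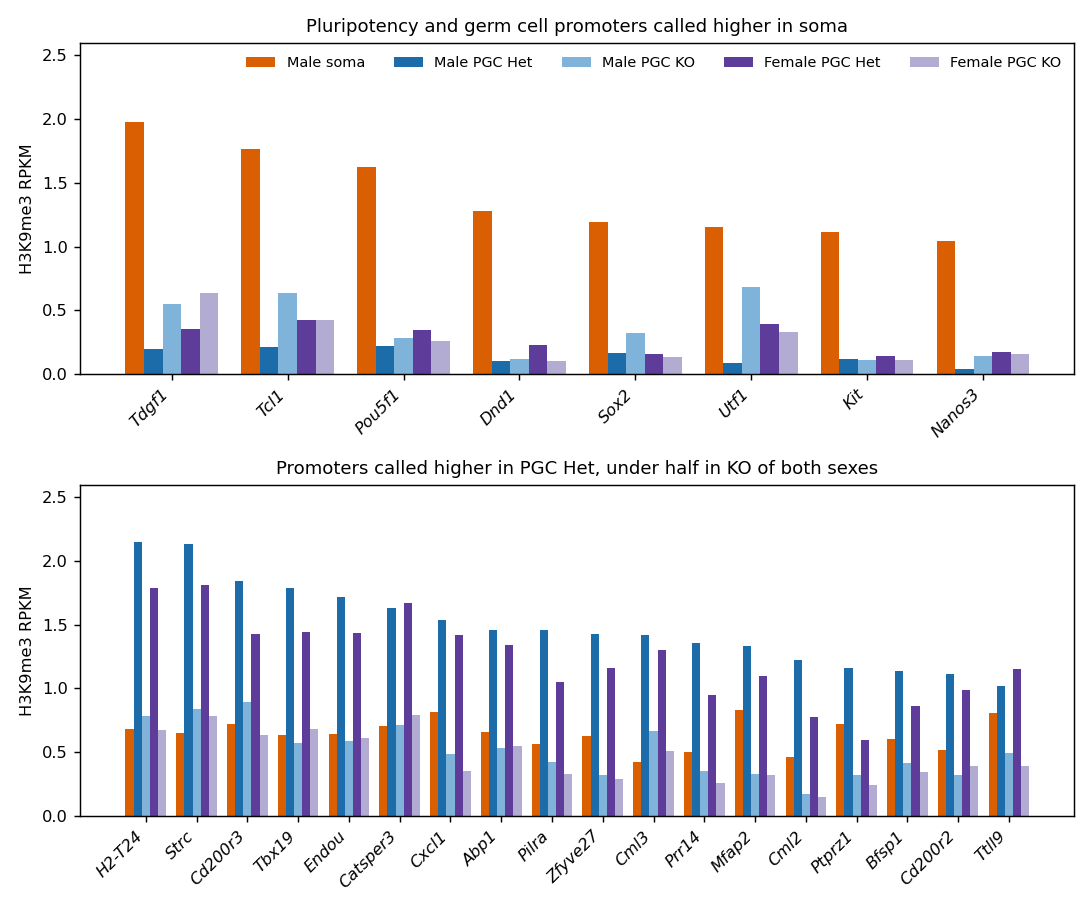
H3K9me3 RPKM (vertical axes) of single promoters in the 5 libraries, 1 bar a library and no error bars. Above are the 8 pluripotency and germ cell promoters called higher in soma, which stand at 1.04 to 1.98 RPKM there. Below are the 18 named Het-high promoters with KO under 50% of Het in both sexes, where both Het bars exceed both KO bars and soma stays at 0.420 to 0.832.

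RNA was read beside these 22 promoters in 4 male Het and 2 male KO libraries of the cross. The Het libraries are 2 of Het1 (delta/+) and 2 of Het2 (flox/-), given in that order. Setdb1 RNA itself was lower in both KO libraries (27.1 and 31.2 RPKM) than in all 4 Het libraries. Of the 8 genes at 1 RPKM or more in any of the 6 libraries, 4 were higher in both KO libraries than in every Het library and 0 were lower, beside 9.14% and 4.08% of the 13179 genes at that level. Markers of Leydig cells moved with the KO in these RNA libraries. All 5 were higher in both KO libraries than in every Het library, and their summed RPKM was 26.9 to 56.1 in KO, 3.42 to 5.32 in Het, 19.8 in the male wild-type library of the cross and 674 in soma, with Cyp11a1 and Cyp17a1 at 0 in at least 1 Het library. Of the 7 Sertoli markers 1 was higher in both KO libraries, with sums of 20.4 to 50.6 in KO and 8.80 to 47.1 in Het, and of the 6 stromal markers 2 were, with sums of 23.9 to 24.5 and 11.0 to 27.6. The part of somatic cells in the 4 genes was not tested.

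Cml2 had 1.53, 0.76, 0.99 and 1.22 RPKM in Het and 11.7 and 16.0 in KO. Abp1, a diamine oxidase, had 0.33, 0.21, 0.05 and 0.07 in Het and 1.13 and 3.47 in KO. Strc was listed at 0 in 3 Het libraries and at 0.02 in the other, and had 1.51 and 0.44 in KO. Mfap2, a microfibril protein, had 3.80, 9.50, 10.99 and 12.97 in Het and 19.3 and 14.4 in KO, with 13.7 in the male wild-type library. Pilra, Prr14, Zfyve27 and H2-T24 overlapped between the groups. In soma RNA, Cml2 had 0.03 RPKM, Strc 0.01 and Abp1 0, while Mfap2 had 114. The promoter ranks of these genes in soma were 21.7, 40.9, 42.6 and 64.3, so Mfap2 lay above the middle.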

How the data were processed

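Promoter H3K9me3 was read from the deposited table, in which the authors give 1 RPKM a mark for the window from 1 kb before to 1 kb after each Ensembl start, per the file headers. The authors' gene table gives RNA as RPKM, per the file headers. Reads were aligned to mm9 with BWA, per the submitters' processing notes, and versions and the read counter are not given in the sources used. Total depth is unknown. Low values fall on multiples of 0.0127 RPKM in male PGC Het and 0.0145 in soma, so that the library medians would be about 9.98 and 49.9 reads if 1 step were 1 read. The soma step is less sure, with 124 values at even and 95 at odd multiples against 3975 and 1244 in Het.

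Each library was ranked over 22138 promoters with ties averaged, in Python 3.11.15 with pandas 2.3.3. The call by 25 rank points and RPKM 1 was run on simulated data, with both simulated libraries drawn from the soma values. These had the same spread, so the run cannot show how the rule behaves between soma and germ cell libraries. RNA was called at 2-fold after a pseudocount of 0.1 with RPKM 1 or more in either library. CpG came from RefSeq promoters of GRCm38.p6, matched by name, from 250 bases before to 50 after the start. The 28 gene lists gave 27 with members. The genes to name were drawn from the 15 widest gaps a direction among called promoters without predicted names, the 10 named promoters highest in soma and in male Het, and up to 6 called members a list, and not all of them are printed. Other genes named here (all members of the pluripotency, germline and imprinted lists, the cytochrome P450, serpin and Klra members, Olfr401 and the promoters lost in KO) were chosen after their values were seen. The comparison and the lists were chosen with earlier results of these data known. There is 1 H3K9me3 library a group, so no significance test was made between libraries, and H3K9me3 at repeats was not analysed here.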

Additional observations from a re-analysis of the deposited data

How the results depend on the processing

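No paired analysis was possible because each group has 1 H3K9me3 library, and for the same reason no library could be left out. The numbers called depended on the condition on level: 5294 promoters were higher in soma and 5250 in Het with no filter on RPKM, 0 and 6 at RPKM 2 or more, and 62 and 2629 at 2 times the library median, an alternative chosen after seeing the data. A 2-fold RPKM ratio gave 3421 and 105 with a pseudocount of 0.1, 646 and 4 with a pseudocount of 1, and 955 and 296 after division by the library median. Over the 14814 promoters with sequence, which hold 1353 and 97 of the calls, ranks within CpG classes gave 1233 and 79, also chosen after seeing the data. Over the 11930 without another start within 2 kb, added likewise, 964 and 93 were called, and these hold 924 and 93 of the main calls. The other alternatives (gaps of 15 or 35 points, 1 row a gene name, ranks over promoters at RPKM 0.5 or more, promoters at 0 left out, female Het as the germ cell library, a gap also to female Het) gave 1565 to 2355 and 165 to 199. Near counts did not mean the same promoters, since the 187 called with female Het hold 113 of the 175. All 27 lists kept the direction of their median soma minus Het difference with a log2 ratio of RPKM taken relative to all promoters, and 24 kept it with female Het in place of male Het. The exceptions were the other imprinted genes at 1.89 rank points, meiosis genes at -2.06 and Leydig cell genes at -15.0. The RNA counts stayed within 1.5 times under both RNA alternatives.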
